A study of Mus musculus with 8 samples.

Results

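The genes described here are 52 genes of mitosis, the division of the duplicated chromosomes between daughter cells. They were chosen by function and by mouse symbol, and they are 52 of the 37583 genes counted. All 52 were found in the files by Ensembl identifier and all passed the filter on low counts, which left 13964 genes. RNA was sequenced from spleen B cells of C57BL/6 mice (strain label B6) in 8 libraries. The naive group has 3 libraries of cells labelled naive B cells. The CpG group has 3 libraries, labelled Bregs-CpG, of B cells stimulated for 3 days with CpG ODN1668, a DNA oligonucleotide that activates the receptor TLR9. The TLR group has 2 libraries, labelled Bregs-TLR, of B cells cultured with CpG in the same way, to which LPS, PMA and ionomycin were added for the final 5 hours. LPS activates TLR4, PMA activates protein kinase C and ionomycin lets calcium into the cell. Bregs are regulatory B cells, a name for B cells that restrain immune responses. No allele or transgene is named for any group, and neither age nor sex is stated. The labels do not say whether libraries came from separate animals or cultures, so p-values measure the spread between these libraries, which may be technical.

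Resting B cells hold very little of the mitotic machinery, and activation through Toll-like receptors is known to make them divide. A dividing cell makes most mitotic proteins anew in G2, the interval between DNA synthesis and division, under Foxm1 and a complex of Mybl2 with MuvB proteins. Cyclin-bound Cdk1 then starts mitosis, the spindle of microtubules attaches to chromosomes at kinetochores, a checkpoint holds the cell until all are attached, and cytokinesis cuts the cell apart. The resulting transcripts are lost again after division, so in a mixed population their level depends on how many cells are near division and on how much RNA each of these holds. In bulk libraries fewer cells of a kind and less RNA per cell cannot be told apart.

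Gene counts summed to 15804311 to 20069272 per library. Levels are CPM, counts scaled to a common library size and by TMM factors, shares of a library and not amounts per cell, and 1 count was worth 0.0498 to 0.0633 CPM. The lowest count of any member in any library was 34, for Cdc25c. Replicate 1 of each group carries the prefix RCa1 in its file name and the others RCa18, and the labels do not explain this. Multimapped reads were 37.5% to 50.2% of a library with the prefix RCa1 and 14.7% to 21.5% of the others. The B cell markers Cd79a, Cd79b, Ms4a1, Pax5 and Cd22 were present in every library, with sums of 7605 to 8113 CPM in naive, 6894 to 10290 CPM in CpG and 2084 to 2185 CPM in TLR libraries. For macrophages and monocytes the marker sum was 1158, 283 and 155 CPM in naive libraries 1, 2 and 3, and 12.3 to 35.2 CPM in the treated libraries. Natural killer cell markers summed to 13.9 to 68.1 CPM in naive and 1.19 to 2.78 CPM in treated libraries. Summed plasma cell markers were 811 to 1896 CPM in naive, 1310 to 1444 CPM in CpG and 850.0 to 874 CPM in TLR libraries. Jchain gave 1147 CPM of the sum in naive replicate 1. Single plasma cell markers went both ways. Prdm1, Xbp1 and Mzb1 lay higher and Irf4 and Sdc1 lower in the CpG than in the naive libraries, without overlap. T cell markers summed to 56.5 to 73.9, 40.5 to 67.5 and 22.1 to 23.1 CPM, most of it from Lck, and Cd3e was at 0 in 4 of the 5 treated libraries. Dendritic cell sums were 24.6 to 61.4, 12.2 to 41.6 and 4.30 to 6.92 CPM. Most of the sum in the CpG libraries came from Flt3, at 9.03, 38.7 and 13.7 CPM in CpG replicates 1 to 3. Neutrophil sums were 0.501 to 16.6, 0 to 0.267 and 0 CPM (Ly6g was at 0 in every library), and platelet sums 2.56 to 13.1, 2.46 to 3.16 and 2.04 to 3.25 CPM. The erythroid list summed to 128.8 to 159.7 CPM in naive, 152 to 233 CPM in CpG and 495 to 568 CPM in TLR libraries, of which Tfrc, the transferrin receptor that many dividing cells express, gave 461 and 531 CPM in TLR replicates 1 and 2. The part that other cell types had in the levels below was not tested.

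CpG libraries were first set against naive ones, which addresses 3 days of culture with CpG. No group was labelled as cultured for 3 days without CpG. The effects of CpG and of culture therefore cannot be told apart in comparisons with naive cells. A rise with CpG means here a higher level in CpG than in naive libraries. Mitotic genes rose almost as a block: 49 of the 52 were called higher and 1, Cdc25b, was called lower. Pttg1 and Cenpa did not pass the test. Calls come from edgeR's quasi-likelihood fit, with p adjusted over all tested genes and a threshold of 0.05. Of all 13964 tested genes, 23.5% were called higher and 21.9% lower in the same fit. The median log2 fold change of the 52 genes was 2.36, against 0.011 over all tested genes, and the members ranged from -1.35 for Cdc25b to 3.25 for the checkpoint kinase gene Bub1. At least 2-fold higher were 46 members, against 11.4% of all genes. The 3 CpG libraries lay above the 3 naive ones without overlap for 49 members, where 28.3% of all genes did so. The median change was 2.03 without CpG replicate 2, and the count of members called higher was then 48. Between the single RCa1 libraries the median was 1.69, with 50 members above 0, and between the RCa18 libraries it was 2.69, also with 50 above 0.

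**Figure D1:**
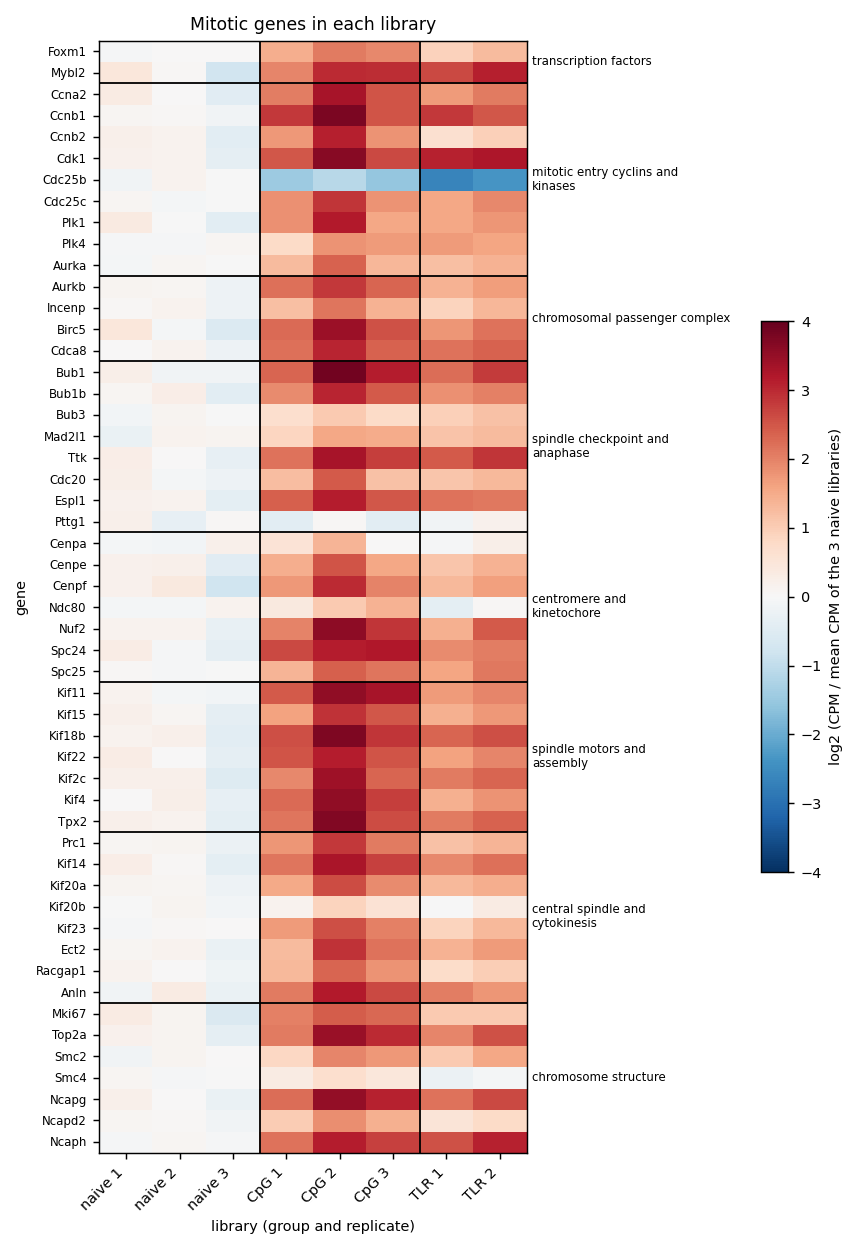
Level of each of the 52 mitotic genes (rows, grouped by role) in each of the 8 libraries (columns), as log2 of the CPM over the mean CPM of the 3 naive libraries. Red is above and blue below the naive mean. Nearly all rows are red in the CpG libraries, CpG replicate 2 most of all, and Cdc25b is blue in all 5 treated libraries.

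Promoter sequences are shown because the members moved together and because mitotic promoters are known for a shared pair of elements. The cell cycle genes homology region (CHR), with the letters TTTGAA or TTCGAA, binds the MuvB complex, and the CCAAT box binds the factor NF-Y. Of the 52 members, 43 had a promoter in the RefSeq table of build GRCm38.p6, from 250 bases before to 50 bases after the start. Some members have several annotated starts, which gave 46 windows. Both strands were searched, and a gene counted if any of its windows held a match. CHR letters stood in 34 of the 43 (79.1%), against 21.7% of the 27025 genes in the table and 16.4% of the 9915 tested genes that it holds. TTTGAA alone stood in 74.4% of members and in 20.2% of all genes, and TTCGAA in 9.30% and 1.80%. CCAAT stood in 31 (72.1%), against 41.1% of all genes and 42.8% of tested ones. Both kinds together were found in 67.4% of members and 9.65% of all genes. A CHR match and a CCAAT match overlapped once in the member windows. Within the last 100 bases before the start, CHR letters stood in 25.6% of members and 7.18% of all genes, and CCAAT in 62.8% and 21.6%.

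Below are the 120 bases before the start of 6 members that rose and have both kinds of letters there, from 5′ to 3′ on the strand of the gene, with matches on either strand in capitals (CCAAT reads ATTGG and TTTGAA reads TTCAAA in reverse). They were picked after the matches were seen. Cdk1 lies at chr10:69352913-69353032 on the minus strand, Cdc20 at chr4:118437344-118437463 on the minus strand, Kif11 at chr19:37376262-37376381 on the plus strand, Kif22 at chr7:127042421-127042540 on the minus strand, Espl1 at chr15:102296173-102296292 on the plus strand and Top2a at chr11:99024190-99024309 on the minus strand (GRCm38.p6, RefSeq).
Cdk1: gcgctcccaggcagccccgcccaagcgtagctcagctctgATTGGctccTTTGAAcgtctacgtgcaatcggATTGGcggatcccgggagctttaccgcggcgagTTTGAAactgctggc
Cdc20: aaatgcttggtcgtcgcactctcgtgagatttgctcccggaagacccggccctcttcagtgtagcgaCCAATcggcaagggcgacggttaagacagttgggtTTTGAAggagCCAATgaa
Kif11: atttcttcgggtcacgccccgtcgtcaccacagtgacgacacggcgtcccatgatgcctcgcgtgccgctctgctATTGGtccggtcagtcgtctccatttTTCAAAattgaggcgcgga
Kif22: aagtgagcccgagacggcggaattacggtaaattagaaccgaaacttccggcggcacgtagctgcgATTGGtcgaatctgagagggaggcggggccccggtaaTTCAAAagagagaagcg
Espl1: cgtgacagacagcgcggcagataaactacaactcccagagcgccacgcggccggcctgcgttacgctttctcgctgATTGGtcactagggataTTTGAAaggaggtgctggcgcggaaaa
Top2a: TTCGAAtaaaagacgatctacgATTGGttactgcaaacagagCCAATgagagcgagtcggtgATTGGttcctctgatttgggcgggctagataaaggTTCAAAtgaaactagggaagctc
In Kif11 the CCAAT match starts 45 bases and the CHR match 19 bases before the start, in Kif22 54 and 17, and in Espl1 44 and 27. Cdk1 holds 2 of each within this stretch. For comparison, the same stretch is shown for the member that fell, Cdc25b (chr2:131186828-131186947 on the plus strand), and for Pttg1, which did not pass the test (chr11:43425982-43426101 on the minus strand).
Cdc25b: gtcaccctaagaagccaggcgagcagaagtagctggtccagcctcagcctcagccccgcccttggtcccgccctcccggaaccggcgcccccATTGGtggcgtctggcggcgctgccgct
Pttg1: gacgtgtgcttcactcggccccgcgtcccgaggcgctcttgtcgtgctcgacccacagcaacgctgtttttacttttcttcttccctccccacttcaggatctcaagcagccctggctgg
Cdc25b has a CCAAT match here and a TTCGAA match 7 bases after the start. Cenpa, not shown, did not pass the test either, yet its window holds both kinds. Its CHR match starts 16 bases after the start, and its CCAAT matches start 109 and 86 bases before it. Pttg1 holds neither kind in its window. Mybl2, Plk4, Birc5, Mad2l1, Nuf2 and Ncaph also held neither, and these 6 were called higher with CpG.

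**Figure D2:**
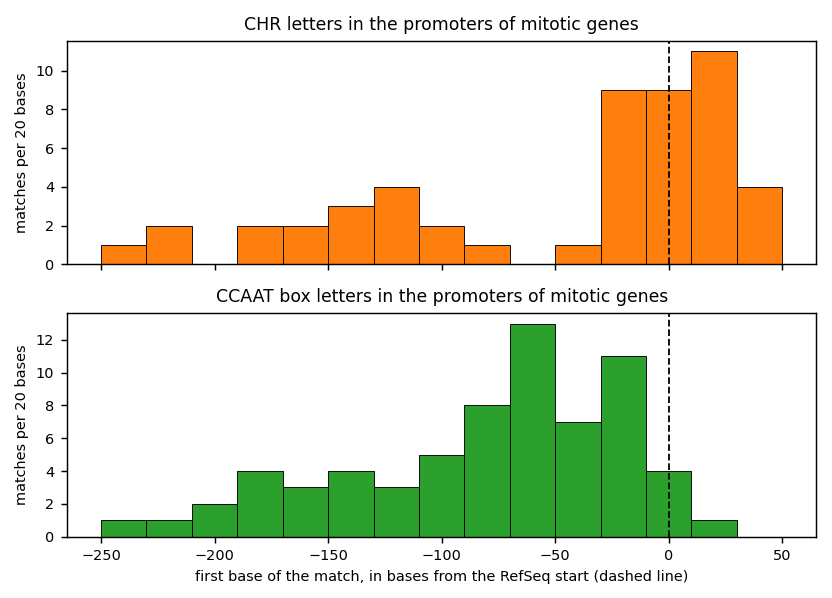
Number of CHR matches (top) and CCAAT matches (bottom) per 20 bases in the 46 promoter windows of the 43 members in the RefSeq table, by distance in bases from the annotated start (dashed line). A match in several windows of a gene is counted at each of its positions. CCAAT matches lie mostly within 100 bases before the start, where 62.8% of members have one, and CHR matches gather on both sides of it.

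The transcription factors of the programme rose with it. Foxm1, the forkhead factor of G2 and mitosis, stood at 14.7, 15.2 and 15.3 CPM in the naive libraries, 41.4, 64.0 and 57.0 CPM in the CpG libraries and 28.8 and 35.8 CPM in the TLR libraries. The CpG libraries all lay above the naive ones (log2 fold change 1.85 ± 0.17, edgeR adjusted p = 3.65e-05). Mybl2, which recruits Foxm1 to mitotic promoters, stood at 8.13, 6.11 and 3.44 CPM in the naive libraries, 22.6, 46.6 and 45.9 CPM in the CpG libraries and 36.7 and 50.9 CPM in the TLR libraries. It rose with CpG (2.70 ± 0.35, edgeR adjusted p = 2.53e-04), and its naive libraries differed among themselves more than those of Foxm1.

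Of the 9 cyclins and kinases of mitotic entry, 8 rose and Cdc25b fell. Cdk1, the kinase that starts mitosis, was at 7.03, 6.91 and 4.86 CPM in the naive libraries, 35.3, 78.6 and 39.2 CPM in the CpG libraries and 52.4 and 59.0 CPM in the TLR libraries. This was an 8.14-fold rise with CpG (3.02 ± 0.31, edgeR adjusted p = 6.19e-05), with no overlap between naive and CpG libraries and CpG replicate 2 the highest. Ccnb1, the cyclin B1 partner of Cdk1, was at 2.19, 2.10 and 1.88 CPM in the naive libraries, 14.7, 28.0 and 11.8 CPM in the CpG libraries and 14.7 and 11.6 CPM in the TLR libraries. It rose 8.82-fold (3.14 ± 0.33, edgeR adjusted p = 7.87e-05), from a level that was close to even in the naive libraries. Ccnb2, the second B-type cyclin, was at 9.12, 8.67 and 5.95 CPM in the naive libraries, 26.6, 68.4 and 27.4 CPM in the CpG libraries and 12.3 and 15.4 CPM in the TLR libraries and rose by 2.37 ± 0.37. Ccna2 (cyclin A2), Cdc25c (a phosphatase that activates Cdk1), Plk1 (a kinase of spindle assembly), Aurka (a kinase of the spindle poles) and Plk4 (the kinase of centriole duplication) rose by 2.72 ± 0.32, 2.25 ± 0.34, 2.36 ± 0.40, 1.75 ± 0.28 and 1.48 ± 0.23 on the log2 scale.

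Cdc25b, a phosphatase that activates cyclin-dependent kinases ahead of mitosis, ran against the rest. Its level was 161, 197 and 174 CPM in the naive libraries, 65.0, 82.9 and 60.1 CPM in the CpG libraries and 28.4 and 34.3 CPM in the TLR libraries. The groups were ordered without overlap, naive above CpG above TLR. It fell with CpG (-1.35 ± 0.15, edgeR adjusted p = 8.49e-05) and again in the TLR group (-1.15 ± 0.17, edgeR adjusted p = 6.06e-04). In naive cells it was also among the most abundant members per kilobase of merged exons.

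All 4 genes of the chromosomal passenger complex, which corrects faulty attachments and later guides cytokinesis, rose. Aurkb, its kinase, was at 17.2, 17.0 and 14.0 CPM in the naive libraries, 73.4, 115 and 81.0 CPM in the CpG libraries and 42.6 and 50.9 CPM in the TLR libraries and rose 5.60-fold (2.48 ± 0.19, edgeR adjusted p = 1.13e-05). Cdca8, the borealin subunit, was at 9.17, 10.1 and 7.93 CPM in the naive libraries, 41.3, 75.2 and 46.8 CPM in the CpG libraries and 40.4 and 46.5 CPM in the TLR libraries and rose by 2.59 ± 0.23. Neither gene overlapped between naive and CpG libraries. Birc5 (survivin) was at 8.54, 5.96 and 4.33 CPM in the naive libraries, 30.4, 66.6 and 36.7 CPM in the CpG libraries and 21.5 and 28.6 CPM in the TLR libraries and rose by 2.83 ± 0.34. Incenp, the scaffold, rose by 1.64 ± 0.24 from a higher naive level of 39.7 ± 4.51 CPM (SD, n = 3).

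Among 8 genes of the spindle checkpoint and of anaphase, 7 rose and Pttg1 did not pass the test. Espl1, the protease separase that cuts the rings holding sister chromatids, was at 8.49, 8.27 and 5.79 CPM in the naive libraries, 39.1, 66.5 and 41.8 CPM in the CpG libraries and 33.5 and 32.4 CPM in the TLR libraries and rose 6.53-fold (2.71 ± 0.23, edgeR adjusted p = 2.44e-05). Pttg1, securin, the inhibitor that keeps separase in check, was at 36.4, 25.1 and 32.6 CPM in the naive libraries, 23.5, 32.5 and 23.6 CPM in the CpG libraries and 28.6 and 35.7 CPM in the TLR libraries. Its 3 groups overlapped and no comparison passed the test (-0.24 ± 0.19, edgeR adjusted p = 0.322 for CpG against naive). Whether the change of Pttg1 differs from that of Espl1 was not tested. Ttk, the checkpoint kinase Mps1, was at 3.33, 2.81 and 2.19 CPM in the naive libraries, 12.4, 27.4 and 18.8 CPM in the CpG libraries and 15.1 and 20.3 CPM in the TLR libraries and rose by 2.81 ± 0.31. Bub1b, the checkpoint protein BubR1, was at 19.5, 22.0 and 13.8 CPM in the naive libraries, 68.0, 152 and 102 CPM in the CpG libraries and 64.9 and 74.7 CPM in the TLR libraries and rose by 2.54 ± 0.28. Bub1 rose 9.49-fold from 4.62 ± 0.693 CPM (SD, n = 3) to 43.8 ± 21.9 CPM (SD, n = 3). Mad2l1 (MAD2) and Cdc20, the target that the checkpoint holds back, rose by 1.32 ± 0.19 and 1.74 ± 0.33. Bub3, which also has roles outside mitosis, rose by only 0.83 ± 0.13 from 92.7 ± 7.35 CPM (SD, n = 3).

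Of 7 centromere and kinetochore genes, 6 rose. The Ndc80 complex, which binds microtubules to the kinetochore, has 4 subunits, and all rose. Their estimates ran from 1.00 to 3.01 on the log2 scale, and differences between the subunits were not tested. Spc24 was at 4.64, 3.66 and 2.92 CPM in the naive libraries, 23.1, 32.9 and 34.3 CPM in the CpG libraries and 13.9 and 15.3 CPM in the TLR libraries and rose 8.05-fold (3.01 ± 0.23, edgeR adjusted p = 1.10e-05). Spc25, its direct partner, was at 6.56, 6.16 and 6.32 CPM in the naive libraries, 16.3, 33.6 and 27.8 CPM in the CpG libraries and 18.9 and 27.7 CPM in the TLR libraries and rose 4.09-fold. Ndc80 itself was at 18.1, 18.0 and 20.7 CPM in the naive libraries, 25.0, 38.8 and 49.9 CPM in the CpG libraries and 14.6 and 19.4 CPM in the TLR libraries. It rose only 2.00-fold (1.00 ± 0.23, edgeR adjusted p = 0.00629), while Nuf2 rose 7.74-fold from 4.96 ± 0.820 CPM (SD, n = 3). Cenpa, the histone variant that marks centromeres, was at 45.3, 44.2 and 54.8 CPM in the naive libraries, 70.8, 124 and 48.5 CPM in the CpG libraries and 46.8 and 56.0 CPM in the TLR libraries. CpG replicate 3 lay within the naive range, and the change did not pass the test (0.75 ± 0.28, edgeR adjusted p = 0.0524), but was called without CpG replicate 3 (1.02, adjusted p = 0.00726) and by DESeq2 (0.71, adjusted p = 0.0269). Cenpe, a kinetochore motor, and Cenpf, a large kinetochore protein, rose by 1.92 ± 0.30 and 2.33 ± 0.37.

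The 7 spindle motors and assembly factors all rose, by 2.42 to 3.17 on the log2 scale (median 2.96). Kif11, the motor Eg5 that pushes spindle poles apart, was at 17.4, 15.0 and 14.7 CPM in the naive libraries, 86.4, 185 and 154 CPM in the CpG libraries and 51.2 and 60.7 CPM in the TLR libraries. The rise was 9.03-fold (3.17 ± 0.26, edgeR adjusted p = 1.61e-05). Kif22, a motor that moves chromosome arms, was at 13.5, 11.1 and 8.56 CPM in the naive libraries, 63.2, 98.5 and 62.9 CPM in the CpG libraries and 33.8 and 42.7 CPM in the TLR libraries and rose 6.77-fold. Kif18b, Kif2c (both act on microtubule ends), Kif4 (a chromosome-bound motor), Kif15 (a motor that backs up Kif11) and Tpx2 (an activator of Aurora A) rose by 3.14 ± 0.32, 2.69 ± 0.38, 2.96 ± 0.32, 2.42 ± 0.30 and 2.98 ± 0.37.

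The 8 genes of the central spindle and of cytokinesis were called higher as well. Kif23, the motor subunit of centralspindlin, was at 16.3, 17.1 and 16.8 CPM in the naive libraries, 54.0, 101 and 67.5 CPM in the CpG libraries and 31.1 and 40.6 CPM in the TLR libraries and rose 4.43-fold (2.15 ± 0.22, edgeR adjusted p = 5.94e-05). Racgap1, the other subunit of centralspindlin, was at 19.2, 17.9 and 15.7 CPM in the naive libraries, 43.5, 88.2 and 60.9 CPM in the CpG libraries and 29.1 and 34.8 CPM in the TLR libraries and rose 3.65-fold. The groups did not overlap for either gene. Anln, a scaffold of the contractile ring, was at 3.75, 5.21 and 3.44 CPM in the naive libraries, 17.5, 37.2 and 25.7 CPM in the CpG libraries and 17.1 and 14.2 CPM in the TLR libraries and rose 6.47-fold. Prc1 (which bundles midzone microtubules), Ect2 (the activator of RhoA at the cleavage site), Kif14 and Kif20a (midzone motors) rose by 2.30 ± 0.26, 2.26 ± 0.36, 2.79 ± 0.31 and 2.07 ± 0.26. Kif20b changed least of the 8, from 32.8 ± 2.51 CPM (SD, n = 3) to 48.4 ± 11.9 CPM (SD, n = 3) (0.56 ± 0.18, edgeR adjusted p = 0.0290), and its call did not survive the removal of any 1 naive library, of CpG replicate 2 or of CpG replicate 3 (adjusted p up to 0.0999).

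All 7 genes of chromosome structure rose. Mki67, which codes for the proliferation marker Ki-67 that coats mitotic chromosomes, was at 69.8, 61.2 and 37.4 CPM in the naive libraries, 229, 300.2 and 277 CPM in the CpG libraries and 115 and 116 CPM in the TLR libraries and rose 4.79-fold (2.26 ± 0.21, edgeR adjusted p = 3.74e-05). Top2a, the topoisomerase that untangles sister chromatids, went from 60.1 ± 11.7 CPM (SD, n = 3) to 461 ± 199 CPM (SD, n = 3), by 2.94 ± 0.33. Condensin, the complex that compacts chromosomes, shares the core subunits Smc2 and Smc4 between its forms, and Ncapg, Ncapd2 and Ncaph belong to condensin I. Ncaph was at 11.9, 12.9 and 11.8 CPM in the naive libraries, 55.2, 109 and 81.7 CPM in the CpG libraries and 71.3 and 103 CPM in the TLR libraries and rose 6.71-fold (2.75 ± 0.24, edgeR adjusted p = 2.82e-05). Smc4 was at 268, 244 and 253 CPM in the naive libraries, 317, 407 and 347 CPM in the CpG libraries and 218 and 240.4 CPM in the TLR libraries. It rose only 1.40-fold (0.48 ± 0.12, edgeR adjusted p = 0.00885) from a high naive level, whereas Smc2, Ncapd2 and Ncapg rose by 1.58 ± 0.25, 1.48 ± 0.20 and 3.04 ± 0.31.

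Levels of different members can be compared only per length. The length used here is the exon bases of all transcripts of a gene merged, which can exceed the length of the transcript present. Per kilobase of exon in GENCODE M21, mean levels in naive cells were 49.0 ± 2.32 CPM per kb for Smc4 and 47.6 ± 4.86 for Cdc25b (SD, n = 3). Next came Pttg1 at 15.7 ± 2.86 and Bub3 at 13.2 ± 1.05, and Kif14 was lowest at 0.280 ± 0.0633. The first 2 did not differ beyond their spread. In CpG libraries the order was led by Smc4 at 68.5 ± 8.73 and Top2a at 51.1 ± 22.0, which overlapped within their SD, then Ncapd2 at 33.8 ± 10.01, Aurkb at 30.5 ± 7.58 and Incenp at 28.6 ± 10.6, and Cdc25c was lowest at 1.73 ± 0.781. In TLR libraries Smc4 stood at 44.0 ± 3.00, Top2a at 32.5 ± 9.11 and Bub3 at 27.9 ± 2.89 CPM per kb (SD, n = 2).

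The CpG libraries differed among themselves in mitotic genes more than in most genes. CpG replicate 2 was the highest of the 3 for 50 of the 52 members, against 30.2% of all tested genes, and CpG replicate 1 was the lowest for 45, against 40.0% of all genes. The ratio of the highest to the lowest CpG library had a median of 2.12 over the members (1.28 to 3.14), compared with 1.39 over all tested genes and 1.31 over those averaging 5 CPM or more. Summed over the 52 members the level was 2849, 5384 and 3802 CPM in CpG replicates 1 to 3. In the naive libraries the sums were 1353, 1360 and 1217 CPM, and the median ratio was 1.33 (1.23 over all genes). Naive replicate 3 was lowest for 37 members, against 28.0% of all genes. Macrophage and monocyte marker sums were 1158, 283 and 155 CPM in naive replicates 1, 2 and 3. Natural killer cell and neutrophil sums were lowest in naive replicate 2. Any part of such cells in these levels was not tested. TLR replicates 1 and 2 summed to 2352 and 2891 CPM, with replicate 2 higher for 48 members, against 49.1% of all genes, and a median ratio of 1.22 (1.17 over all genes). CpG replicate 1 and TLR replicate 1 are both RCa1 libraries, and the part of the prefix in these differences was not tested.

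**Figure D3:**
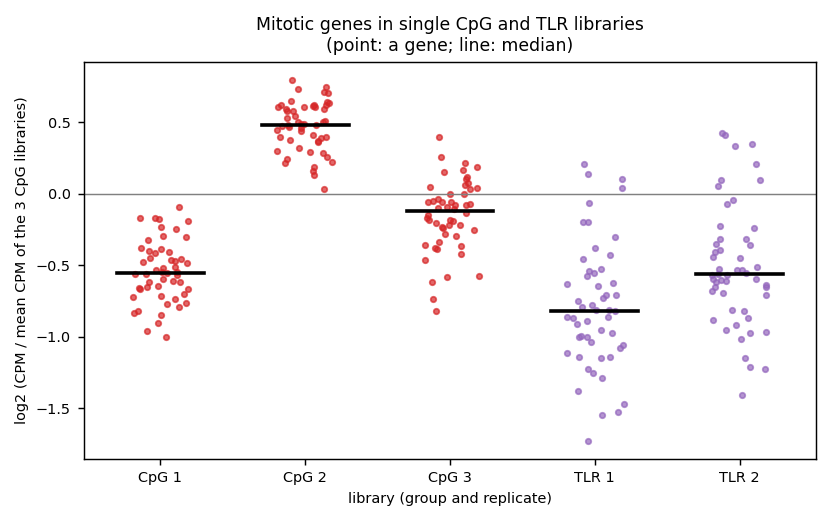
Each point is 1 of the 52 mitotic genes in 1 CpG or TLR library (x axis), as log2 of its CPM over the mean CPM of the 3 CpG libraries (y axis), and black lines are medians. The median is 0.48 in CpG replicate 2 and -0.55 in CpG replicate 1, which lies near the 2 TLR libraries at -0.82 and -0.56.

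The comparison of TLR with CpG addresses the effect of the LPS, PMA and ionomycin added for those 5 hours. Mitotic genes leaned lower: 15 of the 52 were called lower and none higher, and 46 had a log2 fold change below 0, called or not. Over all tested genes 19.8% were called lower and 19.0% higher, and 51.1% had a value below 0. The median change of the members was -0.69, against -0.020 over all genes. The libraries of the 2 groups did not overlap for 22 members, all lower in TLR, where 30.1% of all genes lay lower without overlap. No member passed as higher in edgeR or in DESeq2. At an unadjusted p below 0.05, 0 members were higher and 21 lower in edgeR, against 23.3% and 24.4% of all genes. The summed B cell markers were lower in both TLR libraries (2084 and 2185 CPM) than in any CpG library (6894 CPM or more), and their part in these shares of the library was not tested. The 15 called genes were Foxm1, Ccnb2, Cdc25b, Aurkb, Ndc80, Spc24, Kif11, Kif22, Kif4, Prc1, Kif23, Racgap1, Mki67, Smc4 and Ncapd2.

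These counts depended on single libraries. Without TLR replicate 1, 3 members were called lower (Cdc25b, Kif11 and Mki67), and these 3 were called under every alternative tried. In that setting the median change of the members was -0.56, and calls over all genes went from 5417 to 3516 in both directions together. Without CpG replicate 1, 32 were called lower. Without CpG replicate 2, 15 were called lower, the median change was -0.29, and Cdk1 was called higher (0.58, adjusted p = 0.0414). Set against CpG replicate 1 alone, both TLR libraries were lower for 24 members and both higher for 12, where 43% and 42.7% of all tested genes did so. Against CpG replicate 2 alone they were lower for 49 and higher for none, where 43.1% and 41.9% of all genes did so. Between the single RCa1 libraries 39 members were below 0 with a median of -0.22, and between the RCa18 libraries 47 were, with a median of -0.77. The 2 comparisons share the CpG libraries, so a high CpG library raises the first change and lowers the second.

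**Figure D4:**
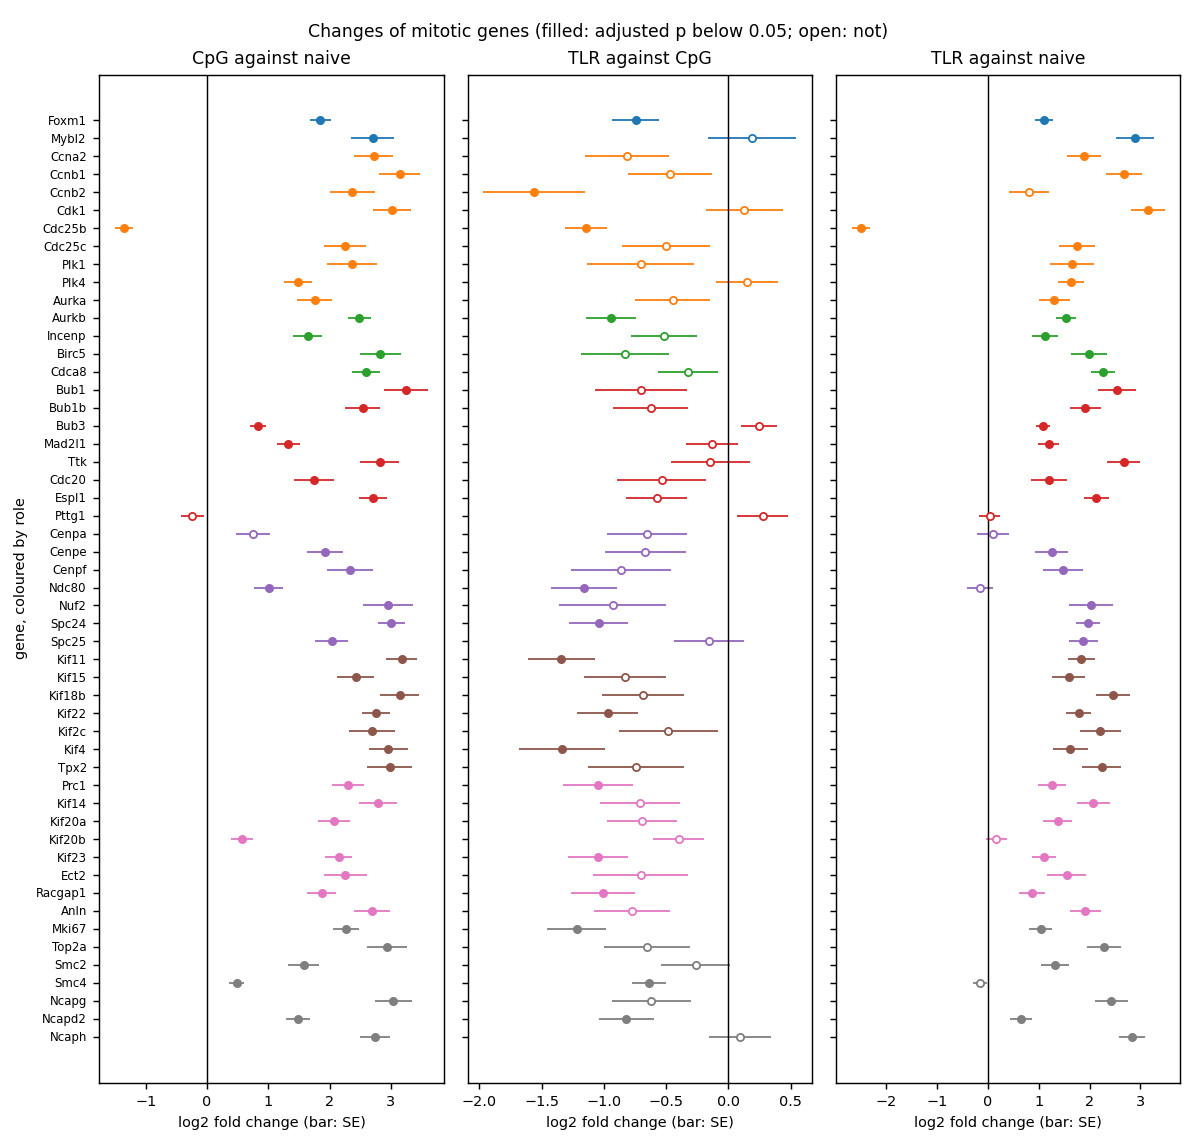
Log2 fold change (x axis) with SE of each of the 52 mitotic genes (rows, coloured by role) in the 3 comparisons. Filled points passed edgeR at an adjusted p below 0.05. With CpG 49 filled points lie right of 0 and Cdc25b left of it, and in TLR against CpG all 15 filled points lie left of 0.

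The members called lower came from all roles except the spindle checkpoint. Mki67 fell by 1.22 ± 0.23 (edgeR adjusted p = 0.00274), and its 2 TLR libraries, at 115 and 116 CPM, lay at about the same level. Kif11 changed by -1.34 ± 0.27, edgeR adjusted p = 0.00360, with TLR libraries at 51.2 and 60.7 CPM below the lowest CpG library at 86.4 CPM. Ccnb2 gave the lowest change among the members, -1.56 ± 0.41, edgeR adjusted p = 0.0135, and its TLR libraries at 12.3 and 15.4 CPM lay between the naive and CpG ones. Its call was lost without either TLR library (adjusted p = 0.0999 and 0.0548). Ccnb1 changed by -0.47 ± 0.34, edgeR adjusted p = 0.302 and did not pass the test. Both centralspindlin genes were called, Kif23 at -1.05 ± 0.24 and Racgap1 at -1.01 ± 0.26, as was Prc1 at -1.04 ± 0.28. In the Ndc80 complex, Ndc80 (-1.16 ± 0.27) and Spc24 (-1.04 ± 0.24) were called, while Nuf2 (-0.93 ± 0.43, edgeR adjusted p = 0.115) and Spc25 (-0.16 ± 0.28, edgeR adjusted p = 0.695) were not. Aurkb and Foxm1 were called at -0.95 ± 0.20 and -0.74 ± 0.19, Kif22 and Kif4 at -0.97 ± 0.25 and -1.33 ± 0.34, and the condensin genes Smc4 and Ncapd2 at -0.64 ± 0.14 and -0.82 ± 0.22. All of the 15 except Cdc25b, Kif11 and Mki67 lost their call without TLR replicate 1, with adjusted p up to 0.118.

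The fitted change was above 0 for 6 members. They were Cdk1 (0.13 ± 0.31, edgeR adjusted p = 0.782), Mybl2 (0.19 ± 0.36, edgeR adjusted p = 0.710), Plk4 (0.15 ± 0.25, edgeR adjusted p = 0.674), Ncaph (0.091 ± 0.25, edgeR adjusted p = 0.806), Bub3 (0.24 ± 0.14, edgeR adjusted p = 0.206) and Pttg1 (0.27 ± 0.21, edgeR adjusted p = 0.328). None of these changes passed the test. For Cdk1 the 2 TLR libraries, at 52.4 and 59.0 CPM, lay inside the CpG range of 35.3 to 78.6 CPM. For Ncaph, TLR replicate 2 at 103 CPM was close to CpG replicate 2 at 109 CPM.

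The comparison of TLR with naive cells gives the net change. Of the 52 members 45 were called higher and Cdc25b was called lower, against 31.6% and 29.7% of all tested genes. Rises of at least 2-fold numbered 43, against 18.4% of all genes. The TLR libraries lay above the naive ones without overlap for 46 members and below them for 2, where 39.8% and 38.3% of all genes did so. The median log2 fold change was 1.63, with 0.011 over all genes. The 6 members that did not pass were Ccnb2, Pttg1, Cenpa, Ndc80, Kif20b and Smc4. Smc4 lay lower in both TLR libraries than in any naive library (-0.15 ± 0.13, edgeR adjusted p = 0.343), but its change did not pass the test. Ndc80 stood at 17.0 ± 3.40 CPM (SD, n = 2) in TLR and 18.9 ± 1.51 CPM (SD, n = 3) in naive cells (-0.16 ± 0.26, edgeR adjusted p = 0.620). Ccnb2 stood above naive in both TLR libraries (0.81 ± 0.40, edgeR adjusted p = 0.102). At the other end, Cdk1 was 8.88-fold higher than in naive cells (3.15 ± 0.33, edgeR adjusted p = 2.74e-05), Mybl2 7.42-fold and Ncaph 7.14-fold. Cdc25b was 5.66-fold lower (-2.50 ± 0.18, edgeR adjusted p = 2.80e-06). Mki67, often used to mark dividing cells, was 2.06-fold higher (1.04 ± 0.22, edgeR adjusted p = 0.00272). Without TLR replicate 2, 41 members were called higher.

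Other genes of the same pathway were taken from lists of related function. In each list more genes were called higher than lower with CpG, but in some lists many were not called. The counts are to be read against 23.5% called higher and 21.9% called lower over all tested genes. Of 33 other kinetochore and checkpoint genes 27 rose and none fell, with Cenpi (2.81 ± 0.22), Cenpm (2.91 ± 0.23) and Sgo1 (2.82 ± 0.24), the guardian of centromere cohesion, having the smallest p. Of 29 other spindle and cytokinesis genes 25 rose, with Psrc1 (4.58 ± 0.20), Cit (2.37 ± 0.17), the citron kinase of cytokinesis, and Spag5 (2.94 ± 0.27) leading by p. Numa1 of this list, a spindle pole protein that is also part of the interphase nucleus, changed by -0.76 ± 0.095. Of 17 tested genes of chromosome structure and cohesion, 7 rose, among them Hmgb2, Cdca2 and Cdca5 (sororin, which protects cohesion), and none fell. The cohesin subunit genes Smc1a, Smc3, Rad21, Stag1 and Stag2, which act in all cells, were not called. Mitotic exit and protein destruction gave 9 higher of 18 and none lower, led by Ube2c (2.82 ± 0.36), the ubiquitin-conjugating enzyme that works with the anaphase-promoting complex. Of 22 G2/M regulators 11 rose, with Pbk (3.80 ± 0.31), E2f7 and E2f8 leading, and Rbl2 fell. DNA replication genes gave 28 higher and 1 lower (Pold1) of 33, led by Chaf1b, Tyms and E2f1. CDK inhibitors and p53 targets gave 12 higher, led by Cdkn2b, Cdkn2c and Zmat3, and 3 lower (Cdkn1b, Gadd45a and Sesn1) of 21. Numa1, Rbl2, Pold1, the 3 lower genes of the last list and the cohesin genes were named after their values were seen.

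In TLR against CpG the calls of these lists went both ways, to be read against 19.0% called higher and 19.8% called lower over all tested genes. Of the other spindle and cytokinesis genes 12 of 29 were called lower and none higher, among them Numa1 (-0.64 ± 0.11), Psrc1 (-1.11 ± 0.19) and Ccdc18 (-1.57 ± 0.30). The count was 6 without TLR replicate 1 and 19 without CpG replicate 1. Of the other kinetochore genes 4 were called lower, including Knl1 (-1.49 ± 0.24), the platform of the checkpoint proteins, and Cenpp (-1.71 ± 0.38), and 1, Mad2l2 (1.03 ± 0.13), was called higher. The lower calls numbered 2 without TLR replicate 1 and 12 without CpG replicate 1. Mad2l2 also acts in DNA repair. DNA replication genes leaned the other way, with 12 of 33 called higher and 1, E2f2 (-2.63 ± 0.20), lower. Mcm2, Mcm3, Mcm5, Mcm6 and Mcm7, subunits of the replicative helicase, were among the 12 (all but Mcm5 named after their values were seen), with Mcm5 at 0.96 ± 0.20, and so was Cdt1 (0.77 ± 0.16), which loads that helicase. The median of this list was 0.31 where that of the mitotic members was -0.69, and the difference between the lists was not tested. Without TLR replicate 1 the count of replication genes called higher was 4. Genes of chromosome structure and cohesion gave 4 lower of 17, led by Esco2, Cdca2 and Top2b (0 without TLR replicate 1). Mitotic exit gave 2 higher and 3 lower of 18, led by Anapc2, Fbxo5 and Cdc16, and G2/M regulators 4 higher and 4 lower of 22. The shares called lower in the cohesion, mitotic exit and G2/M lists were near that of all genes. Without TLR replicate 1, mitotic exit had 0 called either way and G2/M regulators 1 called lower. Among G2/M regulators, E2f4 (0.84 ± 0.098) and E2f5 (1.24 ± 0.16), the E2F factors of repressive complexes, were higher and their partner Rbl2 (-1.22 ± 0.13) was lower. CDK inhibitors and p53 targets gave 8 lower and 3 higher of 21, led by Btg2 (-2.35 ± 0.15), Trp53inp1 (-2.93 ± 0.19) and Plk3 (1.52 ± 0.17).

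**Figure D5:**
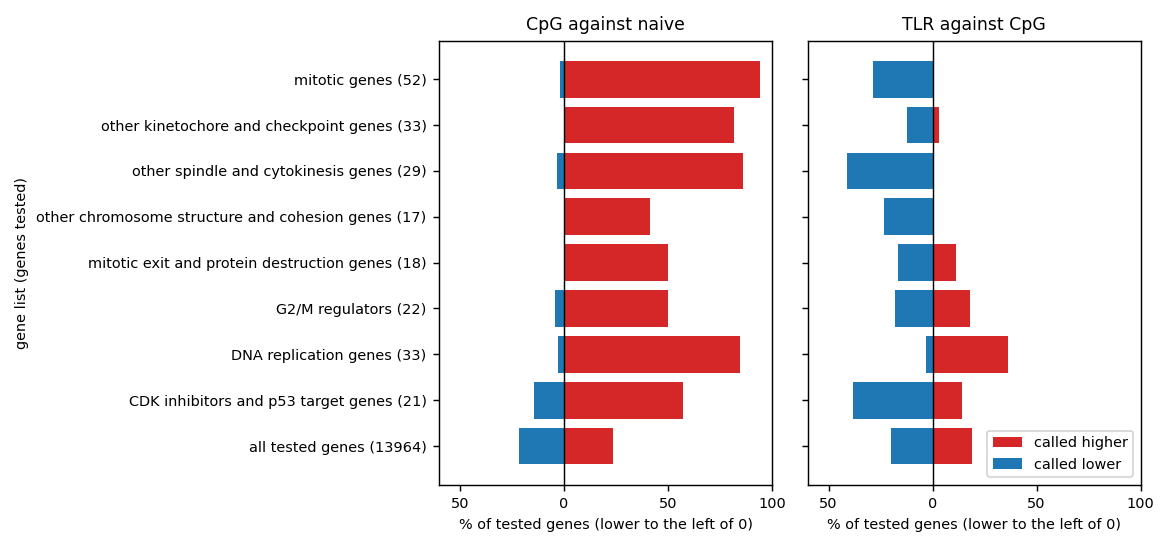
Share of the tested genes of each list called higher (red, right of 0) and lower (blue, left of 0) by edgeR at an adjusted p below 0.05, with CpG against naive on the left and TLR against CpG on the right. With CpG, 94.2% of the mitotic genes are red against 23.5% of all tested genes, and in TLR against CpG 28.8% are blue against 19.8%.

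Against naive cells, the calls of these lists are to be read against 31.6% called higher and 29.7% called lower over all tested genes. The TLR group had 24 of 33 other kinetochore genes higher, led by Cenpm, Mad2l2 and Cenph, and none lower. Other spindle genes gave 22 higher and 2 lower of 29, led by Psrc1, Numa1 (lower) and Stil, and cohesion genes 7 higher and 4 lower of 17, led by Hmgb2, Cdca5 and Cdca2. Mitotic exit gave 10 higher and 2 lower of 18, with Anapc10, Anapc11 and Ube2s in front, and G2/M regulators 16 higher and 1 lower of 22, with Cdc25a (1.98 ± 0.15), Rbl2 (lower) and E2f4 in front. Cdc25a, the sister phosphatase of Cdc25b, stood higher in the TLR group than in naive cells while Cdc25b stood lower. DNA replication genes gave 30 higher and 2 lower of 33, led by Chaf1b, E2f1 and Uhrf1 (3.45 ± 0.22). CDK inhibitors and p53 targets gave 11 higher and 8 lower of 21, led by Btg2, Trp53inp1 and Sesn1, all lower.

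Counting ignored strand, so reads from genes that overlap cannot be told apart by strand. In GENCODE M21, 14 members share exon bases with another gene: Ccna2, Cdc20, Cdc25b, Cdc25c, Cdca8, Foxm1, Kif20a, Kif22, Kif4, Ncapd2, Ncapg, Plk1, Prc1 and Top2a. The longest shared stretches are 1271 bases of Kif20a with Cdc23 and 944 bases of Ncapg with Lcorl, both on opposite strands. For Cdc25b it is 92 of 3728 exon bases, shared with Spef1. The labels do not say how reads in these stretches were counted.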

How the data were processed

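Poly(A) RNA from 8 mouse spleen B cell samples was sequenced from strand-specific libraries, per the labels' protocols. STAR, HTSeq, edgeR and mm9 are named in the submitters' processing notes, without versions, and no source names an annotation release. Each deposited file holds whole-number read counts, not normalized, of 37583 genes and 5 summary lines, and the file names say that strand was ignored. The summary lines stayed out of library sizes, and reads outside any counted gene (the no-feature line) were 7.84% to 15.0% of a library, beside 14.7% to 50.2% multimapped and 1.29% to 2.15% ambiguous reads.

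Identifiers were matched to symbols for 32860 genes. Counts of all 8 libraries were fitted with edgeR 4.0.16 in R 4.3.3 (filterByExpr, TMM factors, quasi-likelihood test, prior count 0.125), with Benjamini-Hochberg adjustment over all tested genes and a threshold of 0.05. A fold change is given as log2 ± SE, where the SE is the fold change over the square root of F. The procedure was tested on simulated data. DESeq2 1.42.0, other scalings and filters, a replicate block, the file name prefix and each library left out were tried as alternatives. No library pair agreed within sampling noise (chi-square per gene at least 12.6). The labels do not say that replicate numbers pair libraries, and the same-numbered libraries did not all correlate above 0.1, so no pairing was assumed. Values in every library are given for the 2 members of each role with the smallest p in CpG against naive and in TLR against CpG, and for members that were not called or went against the rest. Up to 3 called genes by smallest p are named per list. The members, lists and rules were chosen with earlier results of these data known. Promoters came from RefSeq (GRCm38.p6) and exon lengths from GENCODE M21, neither being the build of the counts, so files and references were joined by gene only. A marker gene of the B cell list is not reported here and was left out of the sums.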

Additional observations from a re-analysis of the deposited data

How the results depend on the processing

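Under the 18 alternatives, 49 of 50 member calls in CpG against naive, 3 of 15 in TLR against CpG and 42 of 46 in TLR against naive kept their direction and their side of the threshold. The cause of the changes below was not tested. For CpG against naive the member median was 2.68 with RCa18 libraries only and 2.03 to 2.59 with 1 library left out. For TLR against CpG, leaving out 1 library gave 3516 to 5625 genes called in all, 0 to 1 members higher, 3 to 32 lower and a median of -0.90 to -0.29. With the replicate block 24 members were called lower in TLR against CpG, against 15 without it. Same-numbered naive and CpG libraries correlated at 0.16, 0.104 and 0.00359, and naive replicate 3 correlated best with CpG replicate 2 (0.147). Same-numbered CpG and TLR libraries correlated at 0.325 and 0.297, over only 2 pairs. Promoters with CHR letters were 25.6% in the 100-base window.

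Some changes that did not pass the test with all libraries crossed 0. In TLR against CpG, leaving out 1 library gave ranges of -0.074 to 0.41 for Mybl2, -0.075 to 0.58 for Cdk1, -0.10 to 0.33 for Plk4, -0.63 to 0.00054 for Aurka, -0.38 to 0.18 for Ttk, -0.76 to 0.012 for Cdc20, -0.47 to 0.093 for Spc25, -0.75 to 0.074 for Kif2c and -0.21 to 0.35 for Ncaph. Plk4 was -0.17 with RCa18 libraries only. In TLR against naive the ranges were -0.13 to 0.19 for Pttg1, -0.037 to 0.23 for Cenpa, -0.38 to 0.040 for Ndc80 and -0.010 to 0.33 for Kif20b. Pttg1 there was -0.017 with RLE factors, -0.017 with DESeq2 and -0.0027 with the replicate block, and Cenpa was -0.038 with the block.

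Groups of 2 and 3 libraries limit all of these tests, and without 1 TLR library the other is assumed to vary like the remaining groups. The lowest count of a member was 34, and the effect of depth was not tested.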
